A study of Mus musculus with 27 samples.

Results

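The genes described here encode the proteins of the cytosolic ribosome. They were taken from the deposited mouse count tables by symbol: names that begin with Rpl or Rps followed by a digit or by P, without names carrying -ps or -rs, without the Rps6k kinases and Rps19bp1, and without the 8 paralogues Rpl3l, Rpl10l, Rpl22l1, Rpl39l, Rpl7l1, Rps27l, Rps4l and Rpl36al. This gave 76 genes, 30 of the small subunit and 46 of the large subunit, and 72 of them were listed in every table. Of the genes listed for each experiment, 76 of 14006 were members in embryonic stem cells, 75 of 16598 in germinal vesicle (GV) oocytes, 73 of 16304 in post-GV oocytes and 75 of 17715 in round spermatids. Rpl30 was not listed for either oocyte set, Rpl34 and Rps27 were not listed for post-GV oocytes, and Rpl39 was not listed for spermatids. One of the 76, Rpl37rt, is annotated in GENCODE M21 as a transcribed processed pseudogene. The genes lie on 19 chromosomes, and 4 of them, Rps4x, Rpl10, Rpl36a and Rpl39, are on the X chromosome.

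A ribosome is built from a small subunit, which reads the mRNA, and a large subunit, which joins the amino acids. Each is made of ribosomal RNA and a fixed set of proteins, most of them needed in equal numbers. Their mRNAs are among the most abundant in growing cells. Many of these mRNAs begin with a C followed by a run of pyrimidines, the terminal oligopyrimidine (TOP) motif, through which mTOR signalling and the binding protein Larp1 control their translation. Mettl3 is the catalytic subunit of the enzyme that writes N6-methyladenosine (m6A) into mRNA. Ythdf1, Ythdf2 and Ythdf3 are cytoplasmic proteins that bind m6A, and Ythdf2 recruits the deadenylation machinery to the mRNAs it binds. In male germ cells the X chromosome is silenced at meiosis, and autosomal copies of X-linked ribosomal protein genes, such as Rpl10l and Rpl39l, are known to be expressed there.

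The series holds 27 RNA-seq libraries in 12 groups and 4 experiments, compared in 8 contrasts of a knockout with its own controls. Stem cells of the KH2 line (C57BL/6 x 129/Sv), grown in serum with LIF, gave 2 libraries each for wild type (WT), Ythdf1-/-, Ythdf2-/-, Ythdf3-/-, the triple knockout of all 3 readers, and Mettl3-/-, made from polyadenylated RNA. The 5 stem cell contrasts share the same 2 wild-type libraries, so they are not independent of one another, and the labels do not say whether libraries A and B are separate cultures or clones; p-values then measure the spread between these samples only, which may be technical. GV oocytes came from Mettl3f/f Zp3-Cre+ mice (3 libraries) and from Mettl3f/f Zp3-Cre- controls (4 libraries) on a BDF1 X C57BL/6 X Jax#003651 background; both groups carry the floxed alleles, the Zp3 promoter drives Cre in growing oocytes, and the oocytes of 1 mouse were collected into each SMART-seq2 library. Post-GV oocytes were compared between Ythdf2-/- (2 libraries) and Ythdf2+/- (3 libraries) mice on a CB6F1 X C57BL/6 background, also by SMART-seq2, so these controls lack 1 copy of Ythdf2. Round spermatids, isolated by FACS on the same background, were compared between Ythdf2-/- (2 libraries) and wild-type males (1 library) after ribosomal RNA depletion. Ages were not given.

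The first transcribed bases of 56 of the 76 genes were available from RefSeq (GRCm38.p6). The start base was C followed by 4 pyrimidines in 13 of these genes (23.2%), against 813 of all 27025 genes in the same table (3.01%). The letters CTTT began within 5 bases of the annotated start in 14 members (25%) and in 6.07% of all genes. CTTTCC did so in 8 members (14.3%) and in 0.703% of all genes. Both were read on the strand that carries the letters of the transcript, and every CTTTCC match is also a CTTT match. Annotated starts can be displaced by a few bases, and a match or a missing match describes these letters only. The windows below run 5′ to 3′ over 30 bases around the annotated start, with the start base and the 4 bases after it in capitals. The first 5 begin with C and pyrimidines and belong to genes described below. Rpl5, Rps4x and Rpl10, which carry some of the main values, do not begin that way in this annotation. Rpl10l, the autosomal copy of Rpl10, is shown for comparison.
Rplp2 (chr7:141447636-141447665, + strand): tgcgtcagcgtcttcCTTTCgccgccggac
Rps10 (chr17:27635230-27635259, - strand): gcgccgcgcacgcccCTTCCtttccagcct
Rpl35 (chr2:39005117-39005146, - strand): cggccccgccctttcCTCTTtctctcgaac
Rps15a (chr7:118116133-118116162, - strand): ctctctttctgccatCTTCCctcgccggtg
Rps18 (chr17:33955651-33955680, - strand): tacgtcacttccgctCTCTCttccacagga
Rpl5 (chr5:107900513-107900542, + strand): tctcacgtcgcttgcGTGCTggtggtgcta
Rps4x (chrX:102189377-102189406, - strand): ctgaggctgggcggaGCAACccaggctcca
Rpl10 (chrX:74270801-74270830, + strand): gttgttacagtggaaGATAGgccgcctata
Rpl10l (chr12:66284387-66284416, - strand): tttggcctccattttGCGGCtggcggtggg

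Sequencing depth differed: the 12 stem cell libraries held 612598 to 1111764 counts, the 3 spermatid libraries 18843689 to 32759740, the 5 post-GV libraries 12409822 to 25015081 and the 7 GV libraries 6484397 to 18181397. The markers of each labelled cell type were present: 8 of 8 stem cell markers in stem cells, 9 of 9 oocyte markers in both oocyte sets and 8 of 8 round spermatid markers in spermatids. Mettl3 itself was lower in Mettl3-/- stem cells (16.6 against 139 CPM, counts scaled to library size, log2 change -3.07, edgeR adjusted p = 1.03e-23) and in Zp3-Cre+ oocytes (1.91 against 27.2 CPM, log2 change -3.77, edgeR adjusted p = 0.00182). No Ythdf transcript was called lower in its knockout. Ythdf2 measured 14.3 against 25.5 CPM in Ythdf2-/- stem cells (log2 change -0.85 ± 0.29, edgeR adjusted p = 0.216). Since the deleted parts are not given in the labels, those transcripts check nothing. Ribosomal protein genes have many processed pseudogenes. In the GENCODE M21 transcripts, a median of 35.8% of a member's 50-base words also occur in a transcript of another gene (range 0.0% to 85.5%), and how the authors counted reads that fit several genes was not given in any source used here. The absolute level of a member is therefore uncertain. Shares among the genes described below include 85.5% for Rpl36a, 81.7% for Rpl24, 81.2% for Rpl7a, 80.3% for Rpl13, 79.4% for Rps18, 73.7% for Rpl10 and 72.2% for Rps4x.

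**Figure D1:**
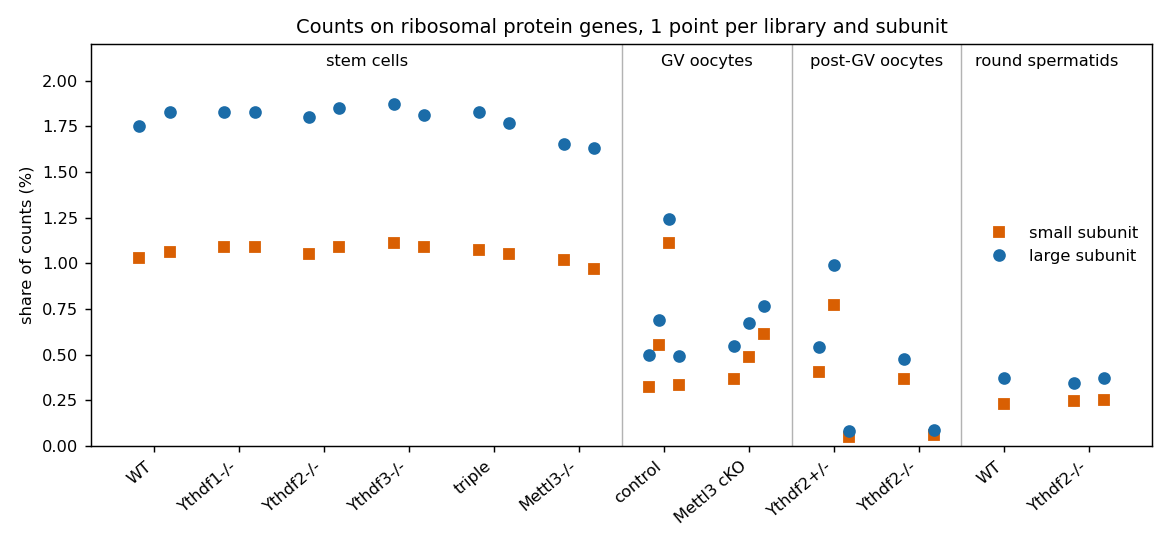
Percent of each library's counts that fell on small-subunit genes (squares) and large-subunit genes (circles), 1 pair of points per library, by group. The 12 stem cell libraries are level, with sums of both subunits between 2.6% and 2.97%, whereas in post-GV oocytes 1 library of each genotype lies far below the other 3.

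The share of a library's counts that fell on these genes was narrow in stem cells. It was 2.78% and 2.89% in wild type, 2.92% and 2.91% in Ythdf1-/-, 2.85% and 2.94% in Ythdf2-/-, 2.97% and 2.90% in Ythdf3-/-, and 2.90% and 2.82% in the triple knockout. Both Mettl3-/- libraries, at 2.67% and 2.6%, were lower than the other 10. In bulk samples such as these, fewer cells of a type and less RNA per cell cannot be told apart. GV oocytes held 0.916%, 1.16% and 1.38% in the knockout and 0.820%, 1.24%, 2.35% and 0.820% in the controls, so the groups overlapped. Spermatids held 0.593% and 0.624% in the knockout and 0.604% in wild type, also overlapping. Library kits differ between the experiments, so their shares are set side by side only.

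Levels per length were compared within the control libraries of each experiment as CPM per kilobase of the annotated principal transcript. In wild-type stem cells the median member stood at 454 CPM per kilobase, and 67 of 76 lay within 4-fold of it. The highest were Rpl36a and Rpl4, a large-subunit protein at the exit tunnel, both at 1020 CPM per kilobase and not separated by their spread, followed by Rplp1 at 938 ± 73.1 and Rps15 at 909 ± 11.1 (SD, n = 2). At the low end were Rps15a at 6.99, Rps27 at 36.4 and Rpl5 at 47.8 ± 0.889 CPM per kilobase. With all annotated exons joined, the highest was Rplp1, also at 938, and the lowest was again Rps15a, at 5.72, so the order near the top depends on the length used. Without division by length Rps15a was not the lowest: it stood at 35.8 CPM and Rps27 at 12.6 CPM. The lowest place of Rps15a thus rests on its annotated length. Spermatids were less even: 54 of 75 members lay within 4-fold of a median of 63.3 CPM per kilobase and 8 stood more than 10-fold below it. The highest in the wild-type spermatid library was Rps7 at 504 CPM per kilobase, and the lowest 4 were Rpl36a at 0.397, Rpl10 at 0.309, Rps4x at 0.0656 and Rpl34 with no count. In control GV oocytes the highest was Rpl41 (584 ± 340 CPM per kilobase, SD, n = 4) and in control post-GV oocytes Rpl10 (398 ± 324, SD, n = 3); the SDs there are of the same order as the means.

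Loss of a single reader in stem cells moved few of these genes, as it did few of all genes tested, and the members moved by small amounts. In Ythdf1-/- cells 2 small-subunit genes rose (Rps23 by 0.26 and Rps2 by 0.27 on the log2 scale) and 1 large-subunit gene, Rpl5, fell, of 76 tested, where 1.95% of all 11951 genes tested were called higher and 1.5% lower at an adjusted p under 0.05. In Ythdf2-/- cells Rpl13 rose by 0.29 and Rpl5 fell, against 0.837% of all genes called higher and 1.07% lower. In Ythdf3-/- cells 4 rose, Rps4x and Rps23 (0.29 and 0.28), Rps2 (0.32) and Rpl3 (0.20), and none fell, against 1.74% of all genes called higher and 1.1% lower. The median log2 change of the small and the large subunit was 0.08 and 0.06 in Ythdf1-/-, 0.05 and 0.03 in Ythdf2-/-, and 0.10 and 0.07 in Ythdf3-/-, where the median over all genes was 0. The largest fall in Ythdf1-/- and in Ythdf3-/- was that of Rps15a (-0.85 and -0.55). Its adjusted p was 0.0628 and 0.372 by edgeR, with no call. Rps15a stood at 35.8 CPM in wild type, the lowest member per length but not in CPM. No member's call in these 3 contrasts held in every fit that left out 1 library, and DESeq2 called 0 members in each of them. Without wild-type library A, edgeR called 0 members in each of the 3. DESeq2 called few genes of any kind in these contrasts. Of 14006 genes it called 48 higher and 3 lower in Ythdf1-/-, 5 and 5 in Ythdf2-/-, and 24 and 1 in Ythdf3-/-. At least 74 of the 76 genes moved by less than 0.5 on the log2 scale in every one of the 3.

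The triple knockout changed 17 of the 76 genes, 11 upward and 6 downward, while the class as a whole stayed near its wild-type level. Of the 30 small-subunit genes 6 rose and 3 fell, and of the 46 large-subunit genes 5 rose and 3 fell; over all genes 13.3% were called higher and 11.8% lower, so the members' shares were close to the background. The median log2 change was 0.07 for the small and 0.05 for the large subunit, and 73 of 76 genes lay within 0.5 of 0. The called rises were between 0.21 and 0.30, among them Rps4x, Rpl6, Rpl13, Rps13, Rpl35, Rps23, Rpl7a, Rps20 and Rplp1. The falls ranged more widely, from Rpl8 (-0.18 ± 0.06 SE) through Rps26 (-0.36) to Rps15a (-0.81), Rpl5 (-1.02) and Rpl37rt (-1.03). The largest estimate upward, 0.42 for Rpl34, was not called (edgeR adjusted p = 0.21). With DESeq2, 2.97% of all genes were called higher and 1.84% lower. Calls depended on single libraries: 6 members were called without wild-type library A, 6 without triple knockout library A, 12 without triple knockout library B and 16 without wild-type library B. Only Rpl5, Rps26 and Rps4x were called in each of these 4 fits, and DESeq2 called 1 member, Rpl5 (DESeq2 adjusted p = 0.0199).

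**Figure D2:**
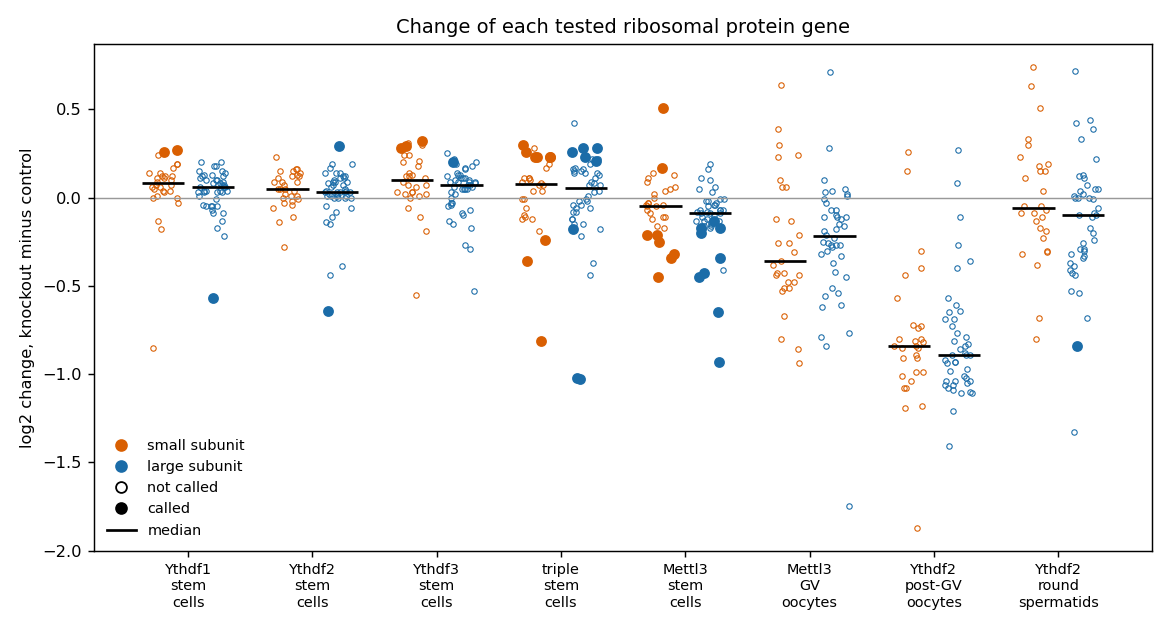
Log2 change of every tested ribosomal protein gene (vertical axis, knockout minus control) in the 8 comparisons, with the small and large subunit apart; filled points passed an adjusted p under 0.05 and bars mark each subunit's median. The 5 stem cell comparisons are narrow around 0, with medians between -0.09 and 0.10, and the post-GV oocytes are low throughout, with medians of -0.84 and -0.89 and no called gene.

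In Mettl3-/- stem cells more members were called lower than higher. Of 46 large-subunit genes 9 fell and 0 rose, and of 30 small-subunit genes 6 fell and 2 rose, against a background of 15.1% of all genes called lower and 15.2% called higher. The median log2 change was -0.05 for the small subunit and -0.09 for the large subunit, with 11 of 30 and 7 of 46 above 0. The small-subunit median was within the typical spread between replicates (0.0522) and between -0.08 and 0.00 when 1 library was left out; the large-subunit median stayed between -0.12 and -0.07, with a spread of 0.0313. A strict filter on low counts moved the large-subunit median to -0.13. Calls depended on single libraries: members called were 6 without Mettl3-/- library B, 11 without Mettl3-/- library A, 12 without wild-type A and 14 without wild-type B, and 4 were called each time, among them Rpl8, Rpl24 and Rps3. DESeq2 called 2 members, with Rpl8 at an adjusted p of 0.00273, where it called 3.98% of all genes higher and 4.27% lower. Markers of fibroblast feeder cells, 6 of 8 of them listed, summed to 512 to 514 CPM in Mettl3-/-, 510 to 568 in the triple knockout and 630 to 659 in wild type. These markers did not move together. In Mettl3-/- the log2 change was 2.02 for Thy1, -1.14 for Vim and -0.88 for Col1a1, each called, and -0.15 for Fn1. In the triple knockout it was 2.12 for Thy1 and -0.40 for Fn1, both called, and 0.28 for Col1a1 and -0.28 for Vim. The part of feeder cells in the members' values was not tested.

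Rpl5 encodes the large-subunit protein that, with Rpl11, carries the 5S ribosomal RNA into the ribosome and can bind Mdm2. Rpl5 stood at 96.4 and 99.0 CPM in wild type, 67.8 and 63.4 in Ythdf1-/-, 55.6 and 68.7 in Ythdf2-/-, 56.9 and 75.8 in Ythdf3-/-, 37.4 and 57.5 in the triple knockout, and 69.0 and 57.4 in Mettl3-/-. All 10 knockout libraries were lower than both wild-type libraries, and the triple knockout library A was the lowest. The fitted log2 changes of Rpl5 were -0.57 ± 0.14 (SE) in Ythdf1-/- (edgeR adjusted p = 0.0161), -0.64 ± 0.14 in Ythdf2-/- (0.0130), -0.53 ± 0.15 in Ythdf3-/- (0.0664, not called), -1.02 ± 0.16 in the triple knockout (2.56e-06) and -0.65 ± 0.15 in Mettl3-/- (0.00142). The same 2 wild-type libraries enter all 5 values, which are therefore not independent. Rpl5 rests on few reads, 107 and 111 counts in wild type and 24 and 42 in the triple knockout, and 44.2% of its 50-base words occur in 14 other genes, so reads from copies of it may be counted in or left out. Rpl11, its partner, stood at 328 ± 2.03 CPM in wild type, 349 ± 7.41 in the triple knockout and 310 ± 0.825 in Mettl3-/- (SD, n = 2 each), and was not called in either (log2 change 0.09 and -0.08).

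**Figure D3:**
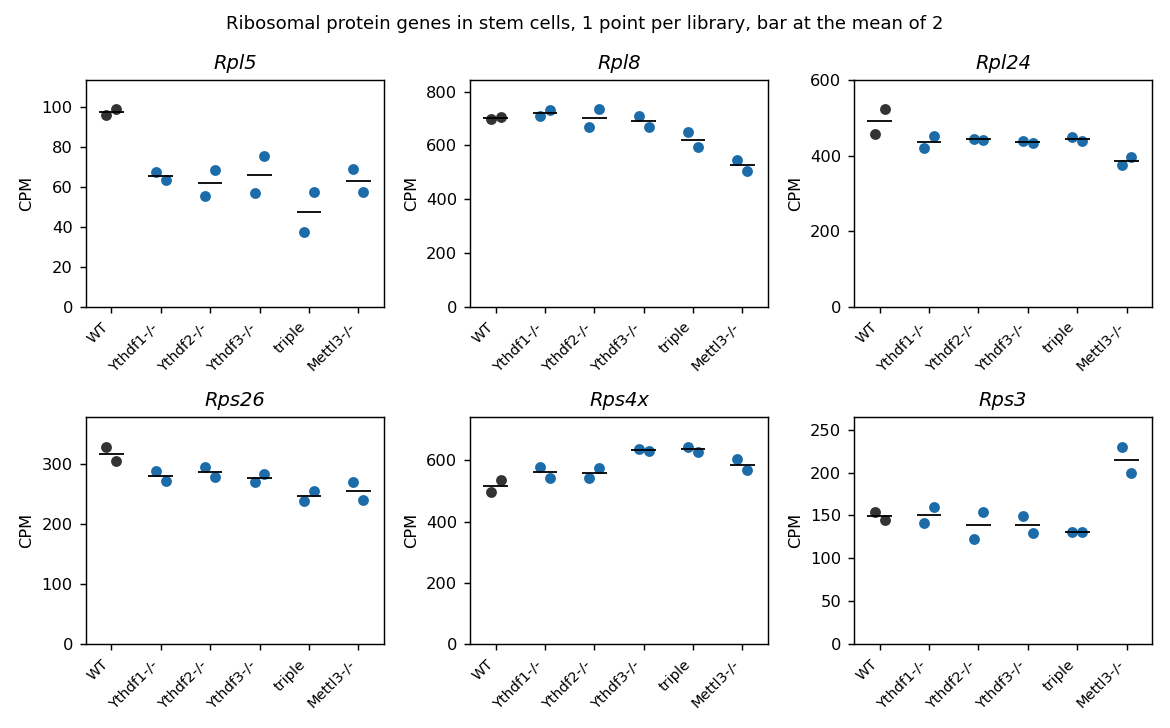
CPM of selected ribosomal protein genes in each of the 12 stem cell libraries (vertical axis, 1 point per library, with a bar at each mean), by genotype. Rpl5 is below both wild-type libraries in all 10 knockout libraries, Rpl8 and Rpl24 are lowest in Mettl3-/-, and Rps4x is highest in Ythdf3-/- and the triple knockout.

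Rpl8, a core protein of the large subunit, was the member with the smallest adjusted p in Mettl3-/- stem cells. Rpl8 measured 699 and 706 CPM in wild type, 650 and 593 in the triple knockout, and 547 and 505 in Mettl3-/-. Both knockouts lay below wild type without overlap, with log2 changes of -0.18 ± 0.06 (edgeR adjusted p = 0.0254) and -0.43 ± 0.06 (edgeR adjusted p = 1.37e-07); the call in the triple knockout was lost in 3 of the 4 fits leaving out 1 library. Rpl24, a large-subunit protein that takes part in a bridge to the small subunit, fell from 459 and 523 CPM in wild type to 376 and 396 in Mettl3-/- without overlap (log2 change -0.34 ± 0.07, edgeR adjusted p = 7.8e-05), and in the triple knockout it stood at 449 and 439 CPM with no call. Rps26, which contacts the mRNA just upstream of the start codon, stood at 329 and 305 CPM in wild type, 239 and 255 in the triple knockout and 271 and 241 in Mettl3-/-. Its log2 changes were -0.36 ± 0.08 (edgeR adjusted p = 0.00139) and -0.32 ± 0.08 (0.00282), and the second was lost in 2 of 4 fits. Other falls in Mettl3-/- were Rpl37rt (-0.93), Rpl5, Rpl37a (-0.45), Rps10 (-0.34), Rps9 (-0.25), Rps24 and Rps3a1 (-0.21 each), Rplp2 (-0.20), Rpl32 and Rpl7a (-0.17 each) and Rpl4 (-0.13).

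Rps4x and Rps3 moved the other way. Rps4x, the X-linked small-subunit gene, measured 495 and 537 CPM in wild type, 636 and 629 in Ythdf3-/-, 644 and 627 in the triple knockout and 603 and 567 in Mettl3-/-. The log2 changes in these knockouts were 0.29 ± 0.06 (edgeR adjusted p = 0.00286), 0.30 ± 0.06 (0.000201) and 0.17 ± 0.06 (0.0331), and the last was lost in 3 of 4 fits leaving out 1 library. In Ythdf1-/- it measured 579 and 542 CPM and in Ythdf2-/- 543 and 575, with a log2 change of 0.12 in each and no call. Every knockout library was thus higher than both wild-type libraries. The same wild-type libraries enter all these values, which are not independent. Rps3, a small-subunit protein at the mRNA entry channel, rose in Mettl3-/- from 154 and 145 CPM to 230 and 200 (log2 change 0.51 ± 0.10, edgeR adjusted p = 9.71e-05), the largest rise of any member there. In the triple knockout Rps3 measured 131 ± 0.277 CPM against 150 ± 6.17 (SD, n = 2) and was not called. The other X-linked members showed no call: Rpl10 measured 361 ± 5.45 CPM in the triple knockout and 344 ± 26.4 in Mettl3-/- against 366 ± 6.48 in wild type, and Rpl36a 473 ± 34.3 and 444 ± 14.8 against 493 ± 36.3. Rpl39 was at 144 ± 0.165 and 122 ± 17.4 CPM against 125 ± 13.0 (SD, n = 2 each). So the 4 X-linked members did not share a direction in either knockout.

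The P stalk, a flexible arm of the large subunit formed by Rplp0, Rplp1 and Rplp2 that recruits elongation factors, had 1 call in the triple knockout and 1 in Mettl3-/-. Rplp0 stood at 469 ± 19.9 CPM in wild type, 497 ± 34.4 in the triple knockout and 451 ± 42.1 in Mettl3-/- (SD, n = 2 each), with overlapping libraries. Rplp1 rose by 0.21 ± 0.07 in the triple knockout (edgeR adjusted p = 0.0175, lost in 2 of 4 fits) and Rplp2 fell by 0.20 ± 0.07 in Mettl3-/- (edgeR adjusted p = 0.0483, lost in all 4 fits). Rpl4, the most counted member, measured 1560 ± 29.1 CPM in wild type, 1640 ± 15.7 in the triple knockout and 1430 ± 17.9 in Mettl3-/-, where its fall of 0.13 (edgeR adjusted p = 0.0478) was lost in all 4 fits. The 13 genes with a pyrimidine start had a median log2 change of -0.01 in the triple knockout, against 0.08 for the 43 others with a known start, and of -0.09 against -0.08 in Mettl3-/-. In the 3 single knockouts those medians were 0.06 and 0.06, 0.05 and 0.04, and 0.09 and 0.09.

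Ribosome components and partners with other names were read from lists, whose counts stand against 13.3% of all genes called higher and 11.8% lower in the triple knockout, and 15.2% and 15.1% in Mettl3-/-. Rpsa, Rack1 (listed under its older symbol Gnb2l1) and Fau encode ribosomal proteins whose symbols the rule does not take, and Rack1 and Fau were not called in any stem cell contrast. Rpsa fell by 0.41 in the triple knockout (edgeR adjusted p = 0.0176) and by 0.33 in Mettl3-/- (0.046). Of 15 translation factors and other mRNAs known to carry a TOP motif, 5 rose and 0 fell in the triple knockout, among them Hnrnpa1 (0.53) and the nucleolar chaperone Npm1, and 3 rose and 2 fell in Mettl3-/-, the falls being the poly(A)-binding protein gene Pabpc1 and the elongation factor gene Eef1b2. Of 40 genes for RNA polymerase I and ribosome assembly, 11 rose and 3 fell in the triple knockout, with a median of 0.15; Nop2, a ribosomal RNA methyltransferase, rose by 0.75. In Mettl3-/- 7 of the 40 rose, Polr1b by 1.09, and 2 fell, the nucleolin gene Ncl by 1.43, with a median of 0.10. Of 17 genes for control of TOP mRNAs and growth, 2 rose and 2 fell in the triple knockout and 3 rose and 2 fell in Mettl3-/-. The transcription factor gene Myc, known to drive ribosome production, changed by -1.21 in the triple knockout, -2.57 in Mettl3-/-, -1.54 in Ythdf1-/- and -1.11 in Ythdf2-/-, each called; its relative Mycn rose by 0.43 and 1.07 in the first 2.

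Several autosomal copies and other paralogues that the rule leaves out changed in stem cells. None of the 8 shares a 50-base word with its parent, so exact matches of that length would tell each pair apart. This does not cover shorter reads or reads placed with mismatches. Some of the 8 share words with other genes: 51.4% of those of Rpl22l1, 22.1% for Rpl36al, 16.2% for Rps27l and 14.9% for Rps4l. The share was 7.6% for Rpl10l, 7.35% for Rpl7l1 and 0.0% for Rpl39l and Rpl3l. Reads from such other genes may be counted in or left out. Rpl39l, a copy of Rpl39 used in male germ cells, measured 28.8 and 41.0 CPM in wild type and 85.8 and 104 in the triple knockout, without overlap (log2 change 1.45 ± 0.17, edgeR adjusted p = 1.42e-10). It made up 19.9% and 23.4% of the pair's counts in wild type and 37.4% to 42.0% in the triple knockout. Rps4l, annotated as a transcribed processed pseudogene of the Rps4 family, rose from 428 and 435 to 643 and 595 CPM there (0.52 ± 0.07, edgeR adjusted p = 2.88e-09). Rpl22l1 fell from 76.6 and 71.3 to 35.9 and 38.3 CPM (-0.99 ± 0.18, edgeR adjusted p = 9.43e-05), and its parent Rpl22 measured 87.9 ± 7.36 CPM against 114 ± 0.433 (SD, n = 2) with no call.

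In Mettl3-/- stem cells the copy that moved most was Rpl10l. It measured 169 and 168 CPM in wild type and 319 and 309 in Mettl3-/- (log2 change 0.89 ± 0.09, edgeR adjusted p = 5.92e-13), and its share of the Rpl10 and Rpl10l counts went from 31.4% and 31.7% to between 46.7% and 48.7%. In the triple knockout Rpl10l rose by 0.55 ± 0.10 (edgeR adjusted p = 8.33e-06), a call lost without triple knockout library A (0.0633). Rps4l also rose in Mettl3-/- (0.33, edgeR adjusted p = 6.22e-05) and Rpl22l1 fell (-0.80, 0.000812). Rpl39l (0.68, edgeR adjusted p = 0.0131) and Rpl36al (0.31, 0.0389) rose as well, but these calls were lost in 2 and in 4 of the 4 fits leaving out 1 library. Counted over all 8, 4 rose and 1 fell in the triple knockout, 5 rose and 1 fell in Mettl3-/-, and 1, 0 and 2 rose in Ythdf1-/-, Ythdf2-/- and Ythdf3-/-, with no falls. The background was 13.3% of all genes called higher in the triple knockout and 15.2% in Mettl3-/-, and the list was not tested as a set.

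**Figure D4:**
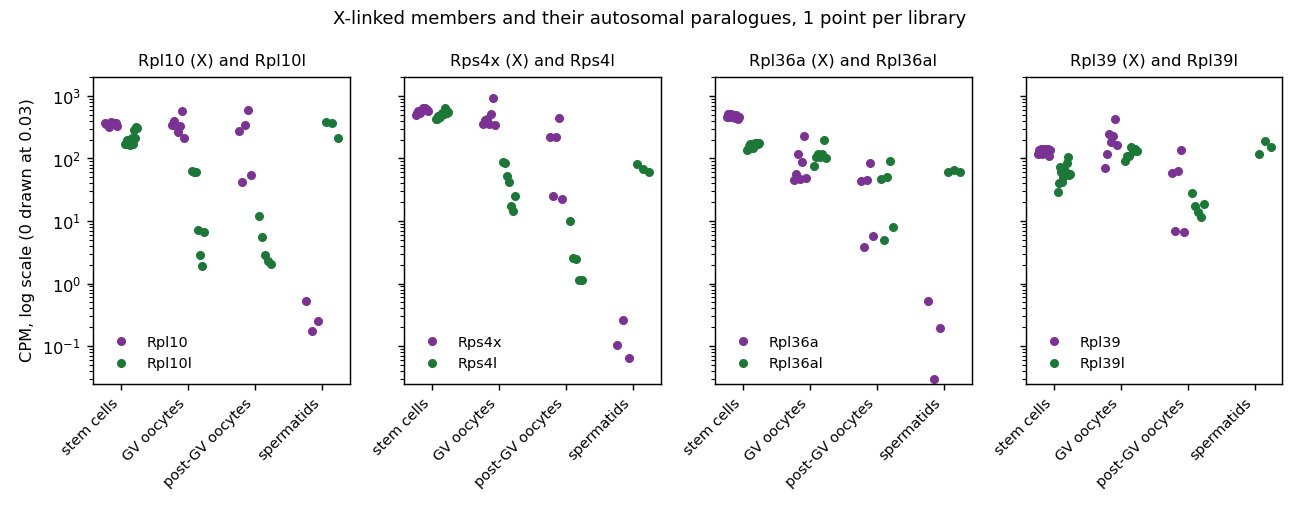
CPM (vertical axis, log scale) of X-linked ribosomal protein genes and of their autosomal paralogues in each experiment, 1 point per library of any genotype, with a count of 0 drawn at the bottom edge. In spermatids Rpl10 is at or below 0.529 CPM and Rpl10l between 215 and 380, and in GV oocytes Rpl10l is near 60 in the knockout and at most 7.08 in the controls.

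In GV oocytes without Mettl3, no ribosomal protein gene passed the test. Of 73 members tested (29 small, 44 large), edgeR called 0, where it called 15.4% of 13551 genes higher and 13.4% lower. At an unadjusted p under 0.05, 2 members were higher and 1 lower. DESeq2 called 1 member, Rpl9, where it called 14.5% of all genes higher and 16.8% lower. Rps27 and Rpl34 were listed but too low to test. The median log2 change was -0.36 for the small and -0.22 for the large subunit, against 0.04 over all genes, and the typical spread between replicates was larger, 0.682 and 0.597. Rpl9, a large-subunit protein, had the largest fall: 17.1, 44.9 and 59.8 CPM in the knockout against 36.4, 128, 335 and 47.1 in the controls. The groups overlapped and control 3 was far above the rest (log2 change -1.75 ± 0.76, edgeR adjusted p = 0.106). Rplp0, of the P stalk, was the only member with every knockout library above every control, at 348, 330 and 305 against 157, 259, 259 and 127 CPM (0.71 ± 0.27, edgeR adjusted p = 0.0712). Over all 13551 genes tested, every knockout library was above every control for 2846 and below every control for 2481. The X-linked Rps4x stood at 355, 411 and 423 against 350, 511, 934 and 340 CPM, and Rpl5 at 452 ± 76.2 (SD, n = 3) against 474 ± 46.1 (SD, n = 4), both with overlap.

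Markers of granulosa and cumulus cells, the somatic cells around the oocyte, differed between these libraries. All 8 of the list had counts, and they summed to 239, 528, 1260 and 255 CPM in control libraries 1 to 4 and to 21.2, 163 and 50.6 CPM in the knockout; 5 of the 7 tested fell, with a list median of -3.43. The 2 controls with the highest sums, 2 and 3, were also the 2 controls with the highest share of counts on ribosomal protein genes (1.24% and 2.35%). The knockout libraries did not follow this order. Knockout 3, with 50.6 CPM of markers, held 1.38%, and controls 1 and 4, with 239 and 255 CPM, held 0.820% each. Leaving out controls 2 and 3 was an alternative chosen after the marker sums were seen. The medians then turned to 0.43 and 0.30 and 5 members were called, all higher: Rps23 (1.42), Rplp0 (1.09), Rps2 (0.93), Rps25 (0.81) and Rpl7 (0.73). In that fit 11.2% of the genes tested were called higher and 11.7% lower. Leaving out control 3 alone turned the medians to 0.19 and 0.13, and leaving out single libraries gave 0 to 2 called members. The part of these cells in the members' values was not tested further, and the direction of the class in this contrast depended on which controls were used.

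**Figure D5:**
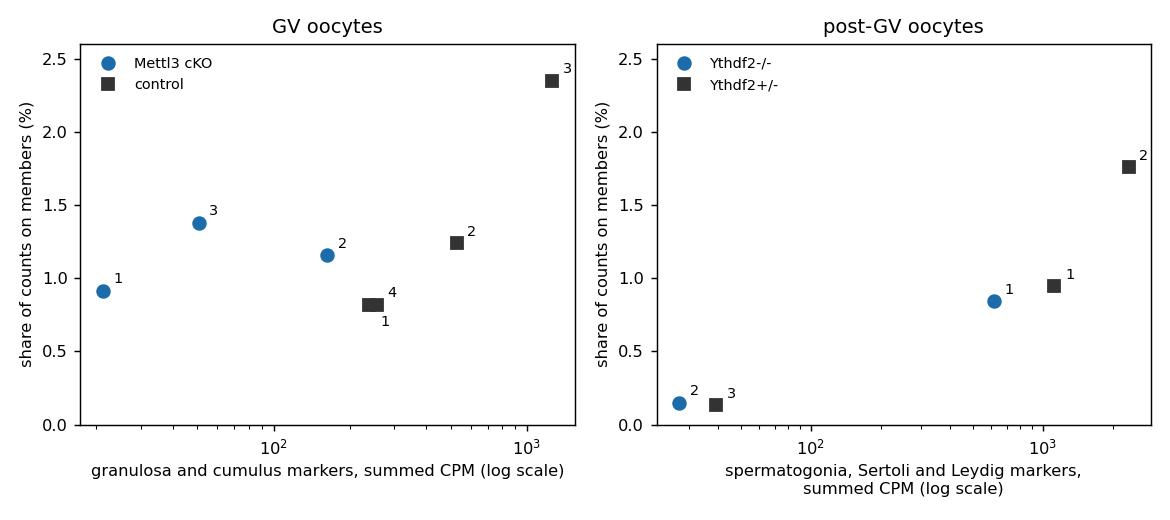
Percent of counts on ribosomal protein genes (vertical axis) against the summed CPM of somatic cell markers (horizontal axis, log scale) in each oocyte library, labelled by replicate. Among GV controls, libraries 2 and 3 are highest on both axes, but GV knockout 3 is above controls 1 and 4 in percent and below them in markers. Among post-GV oocytes, knockout 2 and control 3 are lowest on both.

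Rpl10l stood apart from its parent in these oocytes. It measured 63.5, 61.5 and 59.9 CPM in the knockout and 7.08, 2.81, 1.89 and 6.64 in the controls, with no overlap (log2 change 3.72 ± 0.44, edgeR adjusted p = 0.000648). Rpl10 measured 357 ± 39.6 CPM (SD, n = 3) against 347 ± 164 (SD, n = 4), so the copy's share of the pair's counts was 14.8% ± 1.3 in the knockout and 1.70% ± 1.31 in the controls. The call held in each of the 7 fits leaving out 1 library (highest edgeR adjusted p = 0.00491) and without controls 2 and 3 (3.05). Rps4l was also higher, at 89.0, 85.2 and 53.0 CPM against 42.7, 17.5, 14.5 and 25.4 (1.60 ± 0.38, edgeR adjusted p = 0.0126), though lost in 2 of 7 fits, with an adjusted p of 0.0554 without knockout library 1. Rpl7l1 rose by 0.82 (edgeR adjusted p = 0.0337, lost in 4 of 7 fits). Rpl39l was not called, with 104 ± 11 CPM in the knockout and 140 ± 8.46 in the controls (log2 change -0.42, edgeR adjusted p = 0.104). Among the 40 genes for RNA polymerase I and assembly, 12 rose and 2 fell, against 15.4% of all genes called higher and 13.4% lower, with Polr1c up by 1.71 and the acetyltransferase gene Nat10 at -1.78. Myc (-3.1) and Mycn (-5.4) fell, and the elongation factor gene Eef2 rose by 0.89 (edgeR adjusted p = 0.0416). Every control held more granulosa and cumulus marker counts than every knockout library, and the part of those cells in these values was not tested.

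In post-GV oocytes without Ythdf2 the members were lower in the fit, but their spread was wider than the difference. The 73 members had a median log2 change of -0.84 (29 small) and -0.89 (44 large), against -0.09 over all genes, with a typical spread between replicates of 2.03 and 1.99. edgeR called 0 members and 0 genes of 13910 in all (0% higher and 0% lower); at an unadjusted p under 0.05 it gave 0 members and 782 genes, and DESeq2 called 0 members, 83 genes higher and 11 lower. The share of counts on members was 0.845% and 0.151% in the knockout and 0.948%, 1.76% and 0.132% in the heterozygous controls, so knockout 2 and control 3 stood apart from the other 3 libraries. The shift between the authors' normalized and batch-adjusted values puts the same 2 libraries in 1 batch and the others in another. Rps18, a small-subunit protein of the head, had the largest fall: 80.5 and 8.69 CPM in the knockout against 167, 302 and 18.6 in the controls (-1.87 ± 1.30, edgeR adjusted p = 0.848). The groups overlapped across batches, and within each batch the knockout library was lower.

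The size of this difference depended on single libraries: the medians were -0.04 and -0.11 without knockout 2, -0.14 and -0.25 without control 2, and -3.15 and -3.08 without knockout 1. With batch as a term the medians were -0.40 and -0.52 with 0 members called (192 genes higher and 66 lower). The first batch alone, with 1 knockout against 2 controls, was an alternative chosen after the libraries were seen. The medians there were -0.60 and -0.63, and the log2 change of Rps18 was -1.58. That fit assumes that the lone knockout library varies like the controls. Rplp0 measured 313 and 41.3 CPM in the knockout against 424, 620 and 46.8, and Rps4x 217 and 25.1 against 217, 444 and 22.6, so Rps4x in the second batch was not lower. Somatic markers moved with the batch: the list for spermatogonia, Sertoli and Leydig cells, 6 of 10 listed and mostly the steroid enzyme gene Hsd3b1, summed to 613 and 27.1 CPM in the knockout and 1120, 2340 and 39.0 in the controls. The granulosa list, 7 of 8 listed, summed to 126 and 78.2 against 229, 238 and 103 CPM. The part of somatic cells in the members' fall was not tested. Rpl10l measured 12 and 5.58 CPM in the knockout and 2.89, 2.32 and 2.04 in the controls, the opposite direction to the members, with no call (1.86 ± 0.64, edgeR adjusted p = 0.839). In the first batch alone its log2 change was 2.17.

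In round spermatids without Ythdf2 most members stayed near the 1 wild-type library. Of 72 tested (28 small, 44 large), 1 was called, lower, against 2.25% of 16031 genes called higher and 2.64% lower. The medians were -0.06 and -0.10 where that of all genes was 0.08, and 61 members were within 0.5 of 0. The small-subunit median was 0.06 without knockout library 2 and 0.03 when counts were scaled by library totals, so its sign was not settled. The called gene was Rpl4, at 146 and 128 CPM against 246 (log2 change -0.84 ± 0.24, edgeR adjusted p = 0.0188); DESeq2 gave 0.054, and the call was lost under a stricter filter on counts. Rpl11 measured 54.7 ± 4.84 CPM (SD, n = 2) against 87.5 (-0.68, edgeR adjusted p = 0.137). The largest fall was that of Rpl30, at 1.08 ± 0.049 (SD, n = 2) against 2.72 CPM (-1.33, edgeR adjusted p = 0.4). Among the translation and TOP list the histone chaperone gene Nap1l1 fell (-2.11, edgeR adjusted p = 6.33e-12), and no other of the 15 was called. Spermatocyte markers, 6 of 6 listed, summed to 410 to 476 CPM in the knockout and 630 in wild type, and their part in these values was not tested. With 1 control library, the spread is estimated from the 2 knockout libraries alone.

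The X-linked members were almost uncounted in spermatids, and their autosomal copies were well counted. Rpl10 had 10 and 4 counts in the knockout and 8 in wild type, Rps4x had 2, 6 and 2, and Rpl36a had 10, 0 and 6, in libraries of at least 18843689 counts; a count of 0 allows up to 3 counts. These are CPM values of 0.529 or less. Rpl10l measured 380 and 367 CPM in the knockout and 215 in wild type, Rps4l 81.3, 68.2 and 61.6, and Rpl36al 60.9, 64.5 and 60.9. Rpl39l measured 119 and 188 against 151 CPM. In the wild-type library Rpl10l held 6727 counts against 8 for Rpl10, a share of 99.9% (95% Clopper-Pearson interval 99.8% to 99.9%, counting error only), and Rps4l held 1928 against 2. Of the 3 X-linked members listed all 3 were under 1 CPM, against 3 of 72 autosomal members. Over all listed genes 44.4% of 630 X-linked and 28.0% of 16358 autosomal genes were under 1 CPM, with medians of 1.65 and 5.88 CPM. Rpl10l was higher in the knockout (0.80 ± 0.25, edgeR adjusted p = 0.0391; DESeq2 0.0854), and no other of the 7 paralogues tested was called.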

How the data were processed

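The authors deposited 1 table per experiment with raw counts per gene for each library, normalized values (signal, counts divided by size factors) and, for post-GV oocytes, log2 values adjusted for batch. Per the submitters' processing notes the tools were CASAVA 1.8.2, cutadapt, STAR 2.4.2a and DESeq2 with mm10; the read counter, gene annotation, use of strand and handling of multi-mapped reads are not stated in any source used here. Only the raw counts were tested; for post-GV oocytes the shift between the deposited normalized signal and the batch-adjusted log2 values the authors deposited served to read off the batch. Libraries were grouped by their labels; 1 post-GV control whose title repeats another's number was told apart by its bracketed name.

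Each table was fitted whole with edgeR 4.0.16 (R 4.3.3, TMM scaling, filterByExpr, robust quasi-likelihood test), the stem cell table with all 6 groups and each other table with its 2, and Benjamini-Hochberg adjustment ran over all genes tested, called at 0.05. DESeq2 1.42.0 was an alternative, as were other scalings and filters, a replicate block, a batch term and leaving out each library. CPM are counts scaled to the TMM-adjusted library size. Scripts were tested on simulated data. Intervals cover counting error only. Starts are from RefSeq, positions, lengths and shared words from GENCODE M21.

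The members, lists and tests were chosen with earlier results of these data known. Named in each contrast were called members (up to 10 per direction by adjusted p), the P stalk, Rpl5, Rpl11, the X-linked genes, the largest rise and fall, the most counted members, the left-out paralogues and called genes of the companion lists. Same-numbered GV libraries deviated together with correlations of 0.417, 0.0919 and 0.245, and differently numbered ones with -0.361 to 0.133. These values do not settle whether the numbers pair the libraries, and the labels do not say. The main fit did not use the numbers, and a replicate block served as an alternative. Some genes that this rule names are not reported here.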

Additional observations from a re-analysis of the deposited data

Results flagged for a closer look

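For 5 genes all libraries of the same knockout were above their controls in one cell type and below them in another; in each case the difference itself was not tested. With Mettl3 lost, the log2 change of Rpl39l was 0.68 in stem cells and -0.42 in GV oocytes, and that of Rpl7l1 was -0.40 and 0.82. With Ythdf2 lost, that of Rpl13 was 0.29 in stem cells and -0.24 in round spermatids, that of Rpl22l1 -0.56 and 0.42, and that of Rpl4 0.04 and -0.84. Rpl4 in these stem cells and Rpl13 in spermatids were not called (edgeR adjusted p = 0.819 and 0.689). Nor were Rpl39l in GV oocytes, Rpl7l1 in Mettl3-/- stem cells (edgeR adjusted p = 0.0568), or Rpl22l1 in Ythdf2-/- stem cells (0.108) or in spermatids. So none of the 5 genes was called in both cell types. Such separation of libraries was common over all genes. In spermatids 6213 of 16031 genes were above and 5782 below, and in Ythdf2-/- stem cells 2758 and 2772 of 11951. With Mettl3 lost these were 4034 and 4025 in stem cells and 2846 and 2481 of 13551 in GV oocytes. None of the 27 quantities checked over the 4 GV control libraries had 1 library far enough from the others to stand out.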

How the results depend on the processing

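Ranges here give the lowest and highest value when 1 library was left out. Ythdf1-/- stem cells had 0 to 4 called members, small-subunit medians of 0.06 to 0.10 and large-subunit medians of 0.04 to 0.07; Ythdf2-/- had 0 to 2, 0.04 to 0.08 and 0.02 to 0.07; Ythdf3-/- had 0 to 5, 0.08 to 0.11 and 0.04 to 0.11; the triple knockout had 6 to 16, 0.03 to 0.10 and 0.02 to 0.09; Mettl3-/- had 6 to 14, -0.08 to 0.00 and -0.12 to -0.07. GV oocytes had 0 to 2, -0.59 to 0.19 and -0.49 to 0.13, and post-GV oocytes 0, -3.15 to -0.04 and -3.08 to -0.11. Spermatid medians, with no test, were -0.13 to 0.06 and -0.18 to -0.14.

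With library totals in place of TMM, the large-subunit median was 0.03 in Ythdf1-/-, the small and large medians were 0.06 and 0.02 in Ythdf3-/-, 0.02 and 0.00 in the triple knockout and 0.03 and 0.00 in spermatids. With a filter at a mean count of 50, Ythdf1-/- had 1 call and medians of 0.04 and 0.03, Ythdf3-/- 2 calls and 0.04 and 0.02, the triple knockout medians of 0.01 and 0.01, Mettl3-/- a large-subunit median of -0.13, and spermatids 0 calls and medians of 0.00 and -0.04. DESeq2 called 0 members in each single knockout, 1 in the triple knockout, 2 in Mettl3-/-, 1 in GV oocytes and 0 in spermatids, where its size factors and relative log scaling gave a large-subunit median of -0.13. The alternatives chosen after seeing the data gave 5 calls and a small-subunit median of 0.43 in GV oocytes without controls 2 and 3. In the first post-GV batch the small-subunit median was -0.60. The replicate block gave 10 called members in GV oocytes (Rps2 higher and 9 lower, Rpl9 by -1.70) where 17.4% of all genes were called higher and 16.1% lower; the numbers are not known to pair the mice, and the block changed the member count in no other comparison. In every case the cause was not tested. No paired analysis was possible in spermatids because wild type has 1 library.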
